A study of Mus musculus with 20 samples.

Results

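Mouse small intestine was profiled for 9 transcription factor genes that set the regional identity of the intestine and its maturation at weaning: Gata4, Gata6, Onecut2, Pdx1, Cdx1, Cdx2, Prdm1, Hnf4a and Hnf4g. They were chosen by gene symbol with earlier results of these data known, from the 55487 mouse genes counted. All 9 were among the 17464 genes with enough counts to be tested, with at least 158 counts in every library. The tissue came from offspring of dams with periodontitis (Perio), an inflammation of the tissue around the teeth, and from control offspring (Ctrl). Each kind was taken at 7 weeks and at 2 weeks, so there were 4 groups (7w_Perio, 7w_Ctrl, 2w_Perio and 2w_Ctrl) of 5 libraries each. PolyA RNA was sequenced in bulk, and the stated aim was to compare gene expression between offspring of the 2 kinds of dam. The condition belonged to the dam and not to the offspring, and the labels give no strain, sex, litter or segment of the intestine. Libraries of a group may thus share a litter, and the p-values measure the spread between these libraries.

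These factors act together in the intestinal epithelium. GATA4, ONECUT2 and PDX1 mark its more proximal stretches, GATA6 is found along its length, the CDX factors hold its intestinal as against gastric fate, and the HNF4 nuclear receptors drive the brush border genes of mature enterocytes. In mice PRDM1, a repressor also called BLIMP1, keeps enterocytes in their suckling state until weaning, when sucrase-isomaltase and other enzymes of the adult diet come on. Pups are suckling at the younger age studied and weaned at the older.

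Library totals ran from 14882204 to 42563229 counts. One library stood apart from the others, 2w_Ctrl library 5, with the lowest total, 29.4% of its counts from mitochondrial genes against 3.99% to 9.15% elsewhere, and 20080 genes detected. Its values are given below, and results that rest on it are given with and without it. Exceptions are the alternative settings, among them DESeq2 (another test of counts) and all fits with a covariate. They kept this library unless it is named as left out. All 9 epithelium markers were detected in all 20 libraries labelled as small intestine. Their summed level was 8955 to 16174 CPM (counts relative to library size, scaled by the trimmed mean of M values, TMM) in 7w_Perio and 12951 to 15904 CPM in 7w_Ctrl, against 4203 to 6804 CPM in 2w_Perio and 5488 to 8106 CPM in 2w_Ctrl. With age, 7 of the 9 epithelium markers rose and 1 fell in Perio, and 7 rose and 2 fell in Ctrl. Of 7 genes of the distal small intestine, 5 fell with age and 1 rose in Perio, and 5 fell in Ctrl. Their summed level was 268 to 445 CPM in 7w_Perio and 278 to 392 CPM in 7w_Ctrl, against 353 to 1016 CPM in 2w_Perio and 691 to 1089.9 CPM in 2w_Ctrl, and it overlapped between the ages in Perio. The ileal bile acid carrier Fabp6 was at 0 in all 7w_Perio libraries and the ileal hormone gene Fgf15 was at 0 in all 10 libraries of 7 weeks, whereas all 7 distal genes were detected in every library of 2 weeks. Both were named after their values were seen. Of 9 proximal genes 4 rose and 3 fell in Perio (median log2 fold change -0.56), and 4 rose and 5 fell in Ctrl (median -2.64). Their mean log2 CPM was 7.14 to 9.25 in 7w_Perio and 8.14 to 8.86 in 7w_Ctrl, against 7.83 to 9.61 in 2w_Perio and 9.44 to 9.73 in 2w_Ctrl. The mean log2 CPM of the proximal genes minus that of the 7 distal genes was 5.41 to 7.99 in 7w_Perio and 6.17 to 6.97 in 7w_Ctrl, against 3.37 to 3.82 in 2w_Perio and 3.25 to 4.00 in 2w_Ctrl. Neither this difference nor the epithelium sum overlapped between the ages. An effect of age on the factors, a larger share of epithelium and another stretch of intestine therefore cannot be told apart in the age comparisons, nor can fewer cells of a type and less RNA per cell in bulk tissue.

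Per exon length the factors differed widely in level. In reads per kilobase of exon scaled by CPM (RPKM, exons of all transcripts of a gene joined), 7w_Perio had 119 ± 40.3 for Hnf4a, 70.6 ± 23.4 for Hnf4g, 68.2 ± 11.3 for Cdx2, 52.7 ± 5.09 for Cdx1 and 41.04 ± 8.53 for Gata4 (SD, n = 5). Below these came Gata6 with 24.6 ± 3.21, Pdx1 with 16.6 ± 7.75, Onecut2 with 9.002 ± 2.90 and Prdm1 with 3.82 ± 1.69 RPKM. Between neighbours in that order, Gata4 and Gata6 as well as Onecut2 and Prdm1 were apart by more than their SDs, and the other neighbours overlapped within them. In 7w_Ctrl the RPKM were 154 ± 11.4 for Hnf4a, 80.8 ± 5.23 for Cdx2, 76.1 ± 27.6 for Hnf4g, 51 ± 1.27 for Cdx1, 47.5 ± 3.02 for Gata4, 24.8 ± 4.85 for Pdx1 and 23.9 ± 3.28 for Gata6. Onecut2 with 8.95 ± 2.18 and Prdm1 with 4.95 ± 1.10 RPKM were again lowest. The SDs of Cdx2, Hnf4g, Cdx1 and Gata4 overlapped from neighbour to neighbour in 7w_Ctrl, as did those of Pdx1 and Gata6.

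At 2 weeks the order differed, with both CDX genes above Hnf4g, and Prdm1 above Onecut2 in 2w_Perio. In 2w_Perio the RPKM were 85.3 ± 9.99 for Hnf4a, 66.8 ± 6.70 for Cdx1, 65.9 ± 2.48 for Cdx2, 19.2 ± 8.40 for Hnf4g and 18.4 ± 3.02 for Gata4. Pdx1 with 13.98 ± 5.09, Gata6 with 13.9 ± 0.986, Prdm1 with 7.53 ± 1.91 and Onecut2 with 3.21 ± 0.672 RPKM followed. In 2w_Ctrl without library 5 (n = 4) the RPKM were 97.3 ± 6.90 for Hnf4a, 70.3 ± 3.91 for Cdx1, 69.1 ± 5.44 for Cdx2, 41.3 ± 4.05 for Hnf4g and 23.6 ± 0.5 for Gata4. Pdx1 with 20.3 ± 2.53, Gata6 with 15.9 ± 1.66, Prdm1 with 3.88 ± 1.29 and Onecut2 with 2.80 ± 0.621 RPKM completed that group. Cdx1 and Cdx2 did not differ beyond their SDs in either group of 2 weeks, nor did Prdm1 and Onecut2 in 2w_Ctrl. Hnf4g overlapped with Gata4 in 2w_Perio but lay apart from both its neighbours in 2w_Ctrl.

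**Figure D1:**
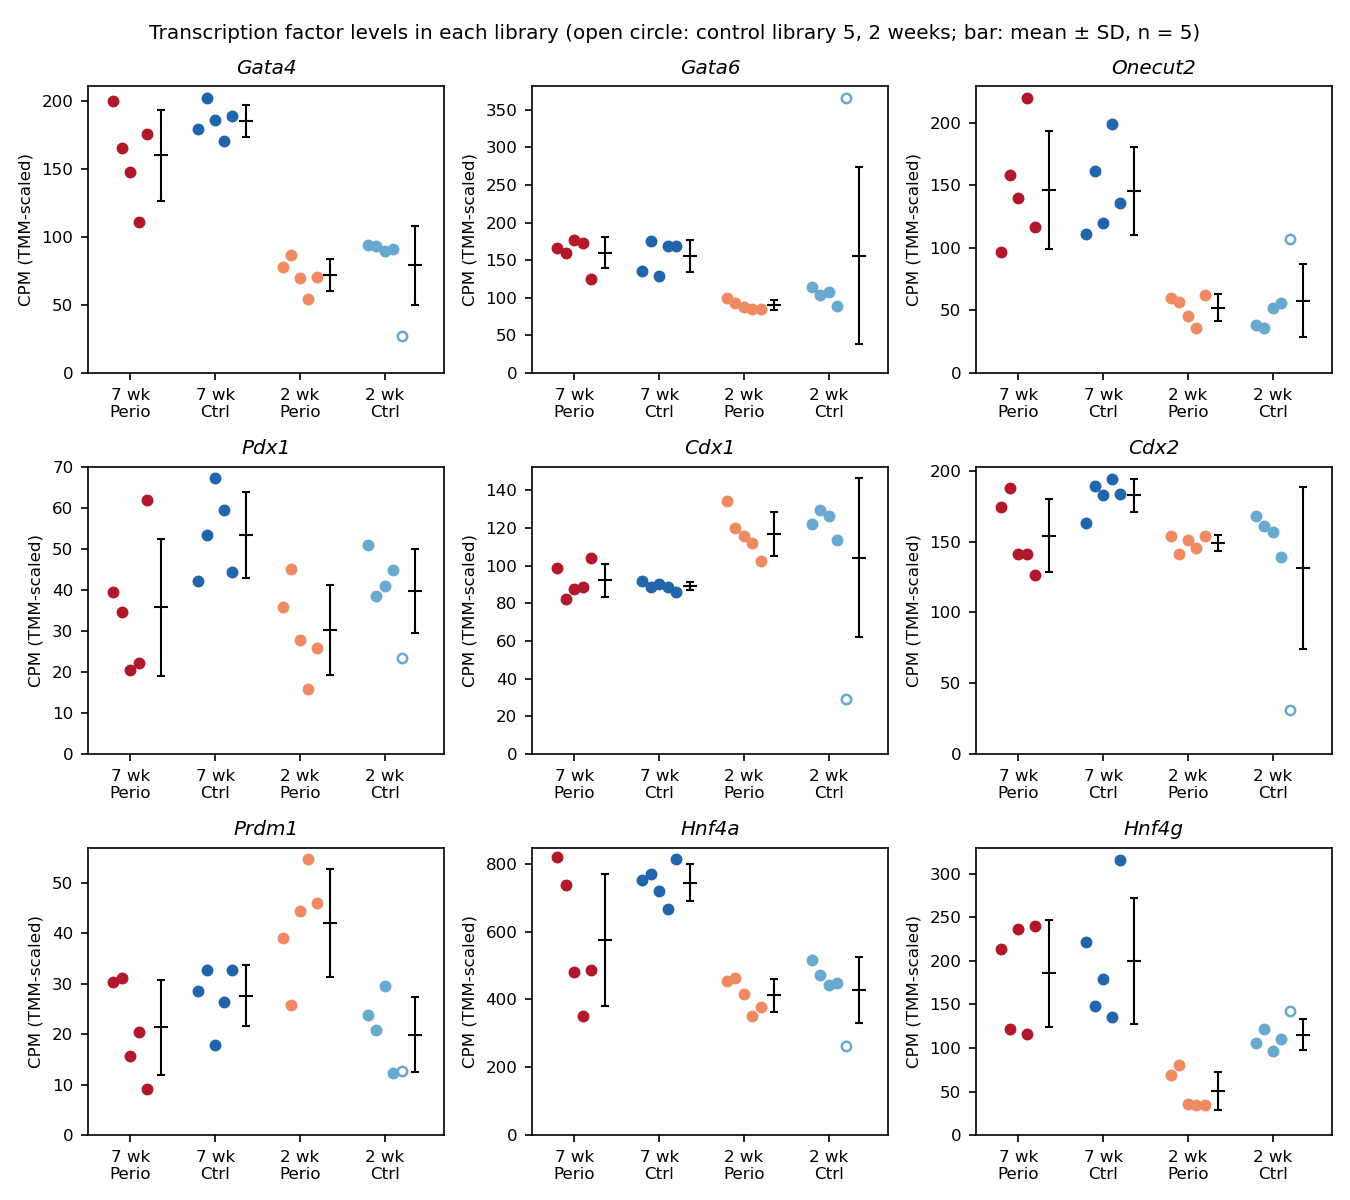
Level of each of the 9 factors in every library, in TMM-scaled CPM, with the mean and SD of each group of 5 beside its points. The open circle is 2w_Ctrl library 5, which is low for Gata4, Cdx1, Cdx2 and Hnf4a and high for Gata6. Gata4 and Onecut2 have higher points at 7 weeks than at 2 weeks in both kinds of offspring, and Hnf4g is lowest in 2w_Perio.

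The comparison of 7 with 2 weeks asks how the factors stand in weaned as against suckling intestine. In Perio offspring 5 of the 9 factors rose (Gata4, Gata6, Onecut2, Hnf4a and Hnf4g) and Prdm1 fell, by edgeR's quasi-likelihood test with Benjamini-Hochberg adjustment over all genes at 0.05. In Ctrl offspring 4 rose (Gata4, Onecut2, Hnf4a and Hnf4g) and none fell. Age changed most of the transcriptome, with 66.1% of tested genes called in Perio (30.4% higher, 35.7% lower) and 61.5% in Ctrl (27.1% higher, 34.4% lower). With all libraries, the 6 of 9 factors called in Perio are near that background, and the 4 of 9 called in Ctrl are under it. Without 2w_Ctrl library 5, 7 of 9 were called in Perio and 6 of 9 in Ctrl, beside 75.4% and 69.9% of all genes, so both are then near the background. The median log2 fold change of the 9 factors was 0.48 in Perio and 0.48 in Ctrl, beside medians of -0.11 and -0.13 over all genes. Groups of the 2 ages did not overlap for 4 factors in Perio and 3 in Ctrl, all higher at 7 weeks. Over all genes 53.2% did not overlap in Perio (24.9% higher, 28.3% lower) and 45.7% in Ctrl (22.5% higher, 23.2% lower).

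Gata4 (chr14:63198922-63271692, minus strand, GRCm38), which is required for jejunal identity in mice, had 200.3, 166, 148, 111 and 176 CPM in 7w_Perio libraries 1 to 5, against 77.8, 86.7, 70.2, 54.7 and 70.7 CPM in 2w_Perio. In Ctrl it had 179, 202, 186, 171 and 189 CPM at 7 weeks, against 93.9, 93.9, 90.03, 91.1 and 27.04 CPM at 2 weeks. Every library of 7 weeks lay above every library of 2 weeks, and 2w_Ctrl library 5 was the lowest of all 20. The log2 fold change with age was 1.15 ± 0.24 in Perio (SE, edgeR adjusted p = 0.000394) and 1.23 ± 0.24 in Ctrl (adjusted p = 0.000275). Without 2w_Ctrl library 5 the change in Ctrl was 1.01 ± 0.14 (adjusted p = 7.63e-06). With the mean of the epithelium markers as a covariate the call was lost, at -0.15 in Perio (adjusted p = 0.716) and 0.22 in Ctrl (adjusted p = 0.539). With the proximal minus distal difference as covariate it was lost as well, at 0.92 (adjusted p = 0.112) and 0.97 (adjusted p = 0.143).

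Gata6 (chr18:11052064-11085635, plus strand), its paralog with expression along the length of the small intestine, had 166, 160.0, 177, 173 and 125 CPM in 7w_Perio, against 100.3, 93.6, 88.2, 85.8 and 84.9 CPM in 2w_Perio. In 7w_Ctrl it had 136, 175, 129, 169 and 169 CPM, against 114, 104, 108, 88.5 and 365 CPM in 2w_Ctrl. The Perio groups did not overlap. In Ctrl, 2w_Ctrl library 5 was the highest of all 20 libraries, and the other 4 lay below every 7w_Ctrl library. With all libraries 22.5% of genes lay wholly higher at 7 weeks in Ctrl, a share not computed without library 5. Gata6 rose by a log2 fold change of 0.82 ± 0.29 in Perio (edgeR adjusted p = 0.0162). The value in Ctrl was -0.00070 ± 0.28 (adjusted p = 0.999), and 0.59 ± 0.12 without 2w_Ctrl library 5 (adjusted p = 0.000256). With the epithelium covariate it was called in both, at 1.88 in Perio (adjusted p = 0.00102) and 1.11 in Ctrl (adjusted p = 0.0353). That fit kept 2w_Ctrl library 5, whose epithelium mean of 8.29 log2 CPM was the lowest of all 20 libraries. It was not repeated without that library, so how far these 2 values rest on it is not known. Of its joined exon length, 1.43% (93 bases) overlaps an annotated gene on the opposite strand, 1010001N08Rik, and whether counting used strand is not given in the sources used here.

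Onecut2 (chr18:64340020-64400987, plus strand), a cut-homeodomain factor of proximal small intestine, had 96.8, 158, 139.6, 219.7 and 117 CPM in 7w_Perio, against 59.6, 56.8, 45.4, 36.3 and 62.3 CPM in 2w_Perio. It had 111, 161, 120.0, 199 and 135 CPM in 7w_Ctrl, against 38.04, 35.7, 51.8, 56.2 and 107 CPM in 2w_Ctrl. The ages did not overlap in either kind of offspring, though 2w_Ctrl library 5 came within a few CPM of the lowest 7w_Ctrl library. The log2 fold change was 1.49 ± 0.28 in Perio (edgeR adjusted p = 0.000125) and 1.33 ± 0.28 in Ctrl (adjusted p = 0.000422), or 1.67 ± 0.24 in Ctrl without that library (adjusted p = 7.45e-06). Onecut2 kept its call in both kinds of offspring under all 29 alternatives computed for it, with adjusted p up to 0.0101 in Perio and 0.0346 in Ctrl. Its relative Onecut1 had at most 4 counts in any library and was not tested.

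Pdx1 (chr5:147269959-147275848, plus strand), a homeodomain factor of duodenum, gastric antrum and pancreas, had 39.5, 34.7, 20.6, 22.1 and 61.99 CPM in 7w_Perio, against 36.01, 45.1, 27.8, 15.9 and 25.98 CPM in 2w_Perio. It had 42.4, 53.6, 67.5, 59.6 and 44.5 CPM in 7w_Ctrl, against 51, 38.5, 41, 44.9 and 23.4 CPM in 2w_Ctrl. The ages overlapped in both, and within 7w_Perio the libraries ran over a wide range, with library 5 highest. From edgeR its log2 fold change was 0.25 ± 0.29 in Perio (95% interval -0.36 to 0.85, edgeR adjusted p = 0.460) and 0.43 ± 0.29 in Ctrl (interval -0.18 to 1.03, adjusted p = 0.210). Markers of pancreas and stomach, which also express Pdx1, were present at 2 weeks. The 6 pancreas markers summed to 127 to 1382 CPM in 2w_Perio and 109 to 425 CPM in 2w_Ctrl, but to at most 0.187 CPM in 7w_Perio and 0.265 CPM in 7w_Ctrl, where all 6 were at 0 in at least 1 library. The 6 stomach markers summed to 7.01 to 521 CPM in 2w_Perio and 64.6 to 328 CPM in 2w_Ctrl, and to at most 0.405 CPM in 7w_Perio and 0.322 CPM in 7w_Ctrl. All 6 pancreas markers fell with age in both kinds of offspring, as did 6 stomach markers in Perio and 5 in Ctrl. Their part in the Pdx1 values was not tested.

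Hnf4a (chr2:163506808-163572910, plus strand), the nuclear receptor that was highest per length in every group, had 818, 737, 481, 352 and 487 CPM in 7w_Perio, against 453, 464, 416, 352 and 376 CPM in 2w_Perio. It had 752, 769, 719, 667 and 813 CPM in 7w_Ctrl, against 516, 473, 442, 449 and 263 CPM in 2w_Ctrl. The Ctrl groups did not overlap, while in 7w_Perio libraries 1 and 2 stood far above the other 3, of which library 4 lay among the 2w_Perio libraries. Its log2 fold change with age was 0.48 ± 0.21 in Perio (edgeR adjusted p = 0.0455) and 0.80 ± 0.21 in Ctrl (adjusted p = 0.00250). In Perio the adjusted p lay just under 0.05, and the call was lost in 15 of the 20 fits without 1 library. These included each fit without a 7w_Ctrl library, a group that is not part of this comparison but shares the estimate of spread. Over the 20 fits the log2 fold change in Perio ranged from 0.32 to 0.62, with edgeR adjusted p up to 0.176. With the epithelium covariate neither call remained, at -0.45 in Perio (adjusted p = 0.199) and 0.05 in Ctrl (adjusted p = 0.883). Of 6 liver markers, another tissue that expresses Hnf4a, the summed level was 39.4 to 185 CPM in 2w_Perio and 15.8 to 42.7 CPM in 2w_Ctrl, and at most 4.40 CPM in 7w_Perio and 4.03 CPM in 7w_Ctrl, with Fga and Fgb at 0 in all 10 libraries of 7 weeks. Among the 6 liver markers, Alb had at most 16 counts and Ahsg at most 4 in any library, too few to be tested. The highest counts were 5519 for Serpina1a and 3625 for Ttr. The part of liver tissue in the Hnf4a values was not tested.

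Hnf4a has a pair of promoters, and the factors studied here bind sites of known shape, so the windows before both start sites were read for such letters. The windows are 250 bases before each RefSeq start (GRCm38.p6), printed 5′ to 3′ without the bases that GENCODE places in an exon of the gene. Motifs searched on both strands were AGATAA for GATA factors, TTTATNG for CDX, CAAAGTCCA for HNF4 and the HNF1 consensus, and a match is in capitals. The upstream window at chr2:163506607-163506810 ends in a GATA match that begins 52 bases before the start, 3 bases of which fall in an annotated exon. The downstream window at chr2:163546943-163547154 holds no match.
Hnf4a upstream start: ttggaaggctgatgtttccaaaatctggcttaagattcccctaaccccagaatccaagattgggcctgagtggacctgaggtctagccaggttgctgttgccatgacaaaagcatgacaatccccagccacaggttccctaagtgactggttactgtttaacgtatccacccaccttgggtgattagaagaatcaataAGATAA
Hnf4a downstream start: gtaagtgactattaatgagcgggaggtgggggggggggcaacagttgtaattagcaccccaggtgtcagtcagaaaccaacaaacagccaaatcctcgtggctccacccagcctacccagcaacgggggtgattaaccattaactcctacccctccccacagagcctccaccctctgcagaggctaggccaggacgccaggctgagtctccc
Among 32851 windows of this length, 9.99% hold the GATA letters, 9.81% the CDX letters, 0.384% the HNF4 letters and 0.0609% the HNF1 letters. Of the 9 factors 4 were matched to windows in the table used, and of their 5 windows the upstream one of Hnf4a alone held any match.

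Hnf4g (chr3:3508030-3658052, plus strand), the paralog that shares targets with Hnf4a in enterocytes, had 214, 122, 236, 116 and 240.1 CPM in 7w_Perio, against 68.5, 80.2, 35.7, 34.4 and 34.3 CPM in 2w_Perio. It had 222, 149, 179.6, 136 and 316 CPM in 7w_Ctrl, against 105, 122, 96.8, 110.0 and 142 CPM in 2w_Ctrl. The Perio groups were well apart, while in Ctrl the lowest library of 7 weeks lay just below the highest of 2 weeks. With age the log2 fold change was 1.88 ± 0.29 in Perio, the largest of the 9 factors there (edgeR adjusted p = 1.94e-05), and 0.80 ± 0.29 in Ctrl (adjusted p = 0.0214). The Perio call remained under all 29 alternatives computed for it, with adjusted p up to 0.00760. The Ctrl call was lost without 7w_Ctrl library 5, at 0.57 (adjusted p = 0.0900), and with either covariate, at 0.63 for epithelium (adjusted p = 0.303) and 0.92 for proximal minus distal genes (adjusted p = 0.213).

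The caudal-type homeobox genes Cdx1 (chr18:61018862-61036199, minus strand) and Cdx2 (chr5:147300805-147307270, minus strand) did not pass the test with age in either kind of offspring. Cdx1 had 98.5, 82.4, 87.6, 88.4 and 104 CPM in 7w_Perio, against 134, 119.8, 116, 112 and 102 CPM in 2w_Perio. It had 92.1, 88.9, 90.5, 88.7 and 86.1 CPM in 7w_Ctrl, against 122, 129, 127, 114 and 29.3 CPM in 2w_Ctrl. With the exception of 2w_Ctrl library 5, every Ctrl library of 7 weeks lay below those of 2 weeks, and in Perio only 1 library of each age crossed. With all libraries 23.2% of genes lay wholly lower at 7 weeks in Ctrl, a share not computed without library 5. The log2 fold change was -0.34 ± 0.25 in Perio (edgeR adjusted p = 0.227) and -0.23 ± 0.25 in Ctrl (adjusted p = 0.437). Without 2w_Ctrl library 5 Cdx1 fell in both, by 0.34 ± 0.08 in Perio (adjusted p = 0.00101) and by 0.46 ± 0.09 in Ctrl (adjusted p = 0.000128) on the log2 scale. In those fits 75.4% of all genes were called in Perio and 69.9% in Ctrl. With the epithelium covariate Cdx1 was called too, at -1.52 in Perio (adjusted p = 0.00452) and -1.12 in Ctrl (adjusted p = 0.0137).

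Cdx2, needed in mice to keep the epithelium from taking a gastric fate, had 175, 188, 141, 141 and 127 CPM in 7w_Perio, against 154, 141, 151, 145 and 154 CPM in 2w_Perio. It had 163, 189, 183, 194 and 184 CPM in 7w_Ctrl, against 168, 161, 157, 139 and 30.99 CPM in 2w_Ctrl. The ages overlapped in both, with 2w_Ctrl library 5 far below all others. From edgeR its log2 fold change was 0.05 ± 0.27 in Perio (95% interval -0.52 to 0.62, edgeR adjusted p = 0.882) and 0.48 ± 0.27 in Ctrl (interval -0.09 to 1.05, adjusted p = 0.137), or 0.22 ± 0.11 in Ctrl without that library (adjusted p = 0.0665). Relative to the epithelium covariate Cdx2 was lower with age in Perio, at -1.51 (adjusted p = 0.00826).

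Prdm1 (chr10:44437177-44528501, minus strand), the suckling-state repressor, had 30.2, 31.1, 15.7, 20.5 and 9.08 CPM in 7w_Perio, against 39.04, 25.7, 44.5, 54.6 and 46.1 CPM in 2w_Perio. It had 28.6, 32.7, 17.8, 26.4 and 32.7 CPM in 7w_Ctrl, against 23.8, 20.9, 29.6, 12.3 and 12.7 CPM in 2w_Ctrl. In Perio 4 of the 5 libraries of 2 weeks lay above all of 7 weeks, whereas in Ctrl the ages overlapped. Prdm1 fell by 0.98 ± 0.31 on the log2 scale in Perio (edgeR adjusted p = 0.00835), and its log2 fold change in Ctrl was 0.47 ± 0.30 (95% interval -0.16 to 1.10, adjusted p = 0.184). The Perio call was lost with the epithelium covariate, at -1.55 (adjusted p = 0.0542), and with the proximal minus distal covariate, at 0.095 (adjusted p = 0.897), with which Prdm1 was called in Ctrl, at 1.73 (adjusted p = 0.0352). Prdm1 is also a gene of plasma cells. The 6 lymphoid and plasma cell markers, of which 4 rose with age in each kind of offspring, summed to 222 to 880.0 CPM in 7w_Perio and 323 to 1161 CPM in 7w_Ctrl, against 14.9 to 29.7 CPM in 2w_Perio and 23.6 to 42.8 CPM in 2w_Ctrl. Their part in the Prdm1 values was not tested.
The promoter window of Prdm1, at chr10:44458749-44458998 on the minus strand, is shown because this was the one factor called lower with age when all libraries were used, in Perio. It holds none of the 4 motifs.
Prdm1: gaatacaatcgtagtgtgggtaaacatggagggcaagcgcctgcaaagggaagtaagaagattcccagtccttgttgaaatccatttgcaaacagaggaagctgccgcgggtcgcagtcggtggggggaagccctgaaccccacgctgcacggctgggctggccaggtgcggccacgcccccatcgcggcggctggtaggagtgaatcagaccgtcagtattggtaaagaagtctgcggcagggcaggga

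**Figure D2:**
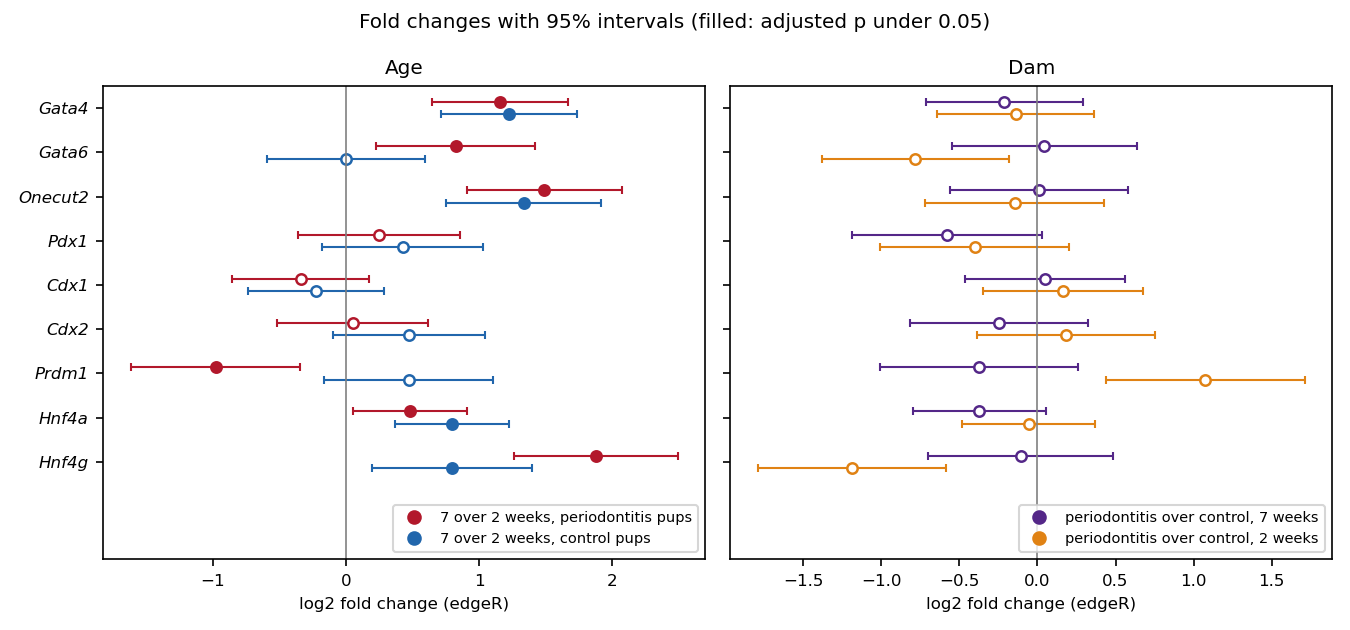
Log2 fold changes of the 9 factors from edgeR with 95% intervals, 7 over 2 weeks on the left panel and Perio over Ctrl on the right panel. Filled points have an adjusted p under 0.05, which holds for 6 factors with age in Perio, 4 with age in Ctrl and 0 in either dam comparison.

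Comparing offspring of dams with periodontitis with controls at 2 weeks asks whether the dam's condition moved these factors in suckling pups. None of the 9 passed the test, and only 5 of 17464 genes (0.0286%, with 0.0172% higher and 0.0115% lower) did, while 2511 genes had an unadjusted p under 0.05, among them 3 of the factors. Those 3 were Hnf4g and Gata6, with negative log2 fold changes of Perio over Ctrl, and Prdm1, with a positive one. DESeq2, run as the other tool, called 599 genes and both Hnf4g and Prdm1 among them. That run kept 2w_Ctrl library 5 and was not repeated without it. The median log2 fold change of the 9 factors was -0.14, beside 0.02 over all genes.

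Hnf4g ranged from 34.3 to 80.2 CPM in 2w_Perio, against 96.8 to 142 CPM in 2w_Ctrl. All 5 Perio libraries lay below all 5 Ctrl libraries, as for 3.54% of all genes, while 3.71% lay wholly above and 7.25% did either. Among the factors this held for Hnf4g alone, and within Perio libraries 3, 4 and 5 had 34.3 to 35.7 CPM, against 68.5 and 80.2 CPM in libraries 1 and 2. Perio over Ctrl, the log2 fold change was -1.19 ± 0.29 (95% interval -1.79 to -0.58), with an edgeR adjusted p of 0.0714 at an unadjusted rank of 134 among 17464 genes. Without 2w_Ctrl library 5 it was -1.10 ± 0.30 (adjusted p = 0.0951). DESeq2 called it, at -1.22 (adjusted p = 0.00562). The edgeR call was reached with the epithelium covariate, at -1.17 (adjusted p = 0.0331), with the proximal minus distal covariate, at -1.19 (adjusted p = 0.0382), and without 2w_Perio library 2, at -1.41 (adjusted p = 0.0179). More genes passed in these settings, 2048, 428 and 387 in that order, against 5 with all libraries and no covariate.

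Prdm1 ranged from 25.7 to 54.6 CPM in 2w_Perio, against 12.3 to 29.6 CPM in 2w_Ctrl. The groups overlapped through Perio library 2 and Ctrl library 3. Perio over Ctrl, the log2 fold change was 1.08 ± 0.31 (95% interval 0.44 to 1.71, edgeR adjusted p = 0.114), and 0.95 ± 0.31 without 2w_Ctrl library 5 (adjusted p = 0.168). DESeq2 called it at 1.06 (adjusted p = 0.0300). In edgeR it passed with the epithelium covariate, at 1.24 (adjusted p = 0.0355), and without 2w_Perio library 2, at 1.21 (adjusted p = 0.0467). Those are the settings in which 2048 and 387 genes were called.

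Gata6 had a log2 fold change of -0.78 ± 0.29 at 2 weeks (edgeR adjusted p = 0.213). That value rested on 2w_Ctrl library 5, whose Gata6 level was over 3 times that of any other library of 2 weeks, and without it the difference was -0.19 ± 0.12 (95% interval -0.44 to 0.05, adjusted p = 0.579). Gata4 was at -0.14 ± 0.24 (interval -0.64 to 0.36, adjusted p = 0.816), and at -0.36 ± 0.14 without that library (interval -0.65 to -0.07, adjusted p = 0.260). Its Perio libraries then lay below all 4 remaining Ctrl libraries. With all libraries 3.54% of genes lay wholly below, and the share without library 5, where groups separate more easily, was not computed. Pdx1 was at -0.40 ± 0.29 (interval -1.01 to 0.20, adjusted p = 0.547). Onecut2, Cdx1, Cdx2 and Hnf4a lay between -0.15 and 0.18 (adjusted p = 0.780 to 0.920), with intervals reaching no further than -0.72 and 0.75. Cdx1, Cdx2 and Onecut2 changed sign without library 5, to -0.074, -0.069 and 0.20. With the epithelium covariate Gata6 was called, at -0.81 (adjusted p = 0.0360), and Cdx2 as well, at 0.73 (adjusted p = 0.0481). That fit kept 2w_Ctrl library 5, was not repeated without it, and called 2048 of 17464 genes, against 5 without the covariate.

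Genes that mark the suckling and the weaned enterocyte, from lists chosen with earlier results of these data known, had larger values than most of the factors but were not called either. Of 8 weaned genes, 0 passed and all 8 had a negative log2 fold change in 2w_Perio over 2w_Ctrl, with a median of -1.13. The glucose transporter gene Slc5a1 was at -1.02 ± 0.21 (edgeR adjusted p = 0.0541), and sucrase-isomaltase, Sis, at -2.33 ± 0.72 (adjusted p = 0.142). Sis had 277, 462, 28.0, 9.004 and 19.2 CPM in 2w_Perio, against 582, 604, 544, 761 and 1500.4 CPM in 2w_Ctrl. Of 13 suckling genes, 0 passed and 12 were positive, with a median of 1.09. The lysosomal protease gene Ctsl was at 1.71 ± 0.32 (adjusted p = 0.0541). With age, 7 of the 8 weaned genes rose in each kind of offspring and 10 of the 13 suckling genes fell in each.

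The mean log2 CPM of the weaned genes was 8.20, 8.45, 6.49, 5.53 and 6.06 in 2w_Perio, against 8.64, 8.41, 8.60, 8.84 and 8.48 in 2w_Ctrl. That of the suckling genes was 7.34, 6.93, 7.81, 7.88 and 7.80 in 2w_Perio, against 6.81, 6.64, 6.90, 5.87 and 5.21 in 2w_Ctrl. The same 3 Perio libraries, 3 to 5, were lowest for the weaned genes, lowest for Hnf4g and highest for the suckling genes and for Prdm1. These 3 libraries were also low for the distal genes, whose mean log2 CPM was 4.38 to 4.87 in them, against 6.09 and 6.24 in the other 2 and 5.69 to 6.28 in 2w_Ctrl. Fabp6 was at 2.92 to 17.5 CPM in them, against 328 and 365 CPM in the other 2 and 197 to 510 CPM in 2w_Ctrl. The proximal genes were low in these 3 libraries as well, at a mean log2 CPM of 7.83 to 8.51. They were at 9.61 and 9.58 in the other 2 and at 9.44 to 9.73 in 2w_Ctrl. The proximal minus distal difference was 3.45 to 3.82 in the 3, against 3.37 and 3.49 in the other 2. Epithelium markers had a mean of 8.48 to 8.70 in the 3, against 9.21 and 9.03 in the other 2 and 8.29 to 9.41 in 2w_Ctrl. Whether age in days, litter or segment differed between these libraries is not given in the labels, and its part in the result was not tested.
The promoter window of Sis, at chr3:72967864-72968113 on the minus strand, is shown because the gene is a classic target of CDX2, GATA4 and HNF factors in mice. It holds 1 match, to the CDX letters on the opposite strand, 52 bases before the start.
Sis: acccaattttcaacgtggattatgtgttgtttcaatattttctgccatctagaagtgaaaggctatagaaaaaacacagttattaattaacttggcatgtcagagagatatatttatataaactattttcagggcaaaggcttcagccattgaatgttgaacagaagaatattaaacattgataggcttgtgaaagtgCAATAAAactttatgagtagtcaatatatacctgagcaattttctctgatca

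**Figure D3:**
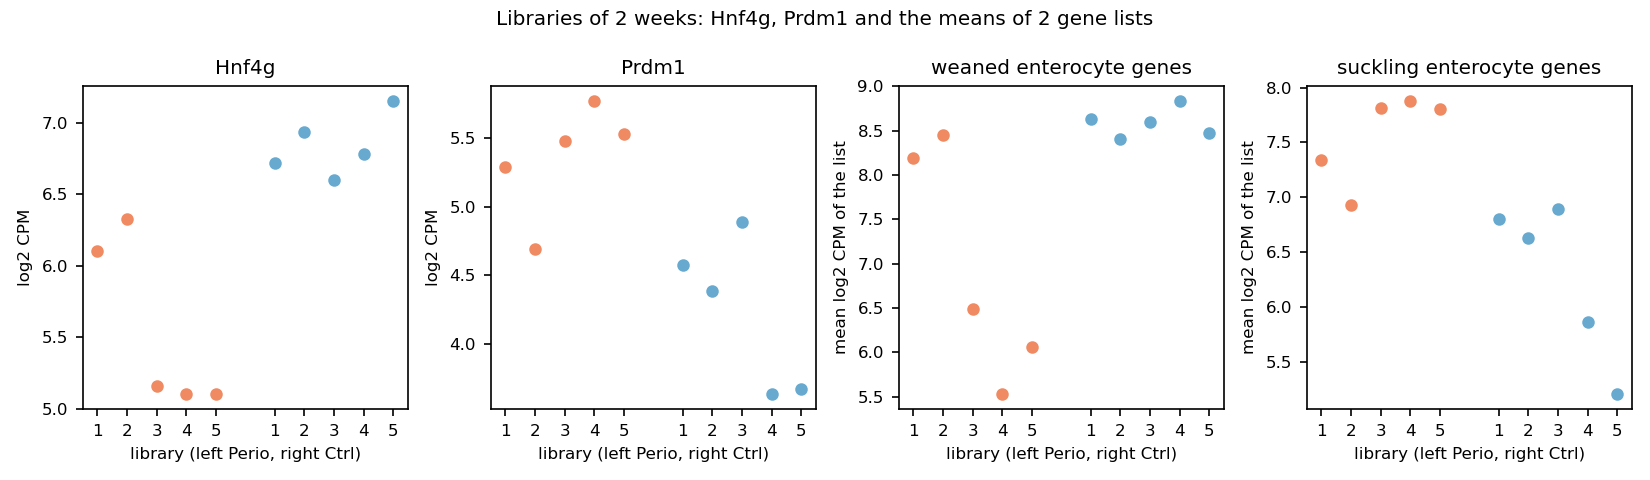
The 10 libraries of 2 weeks, Perio on the left of each panel and Ctrl on the right, for Hnf4g and Prdm1 in log2 CPM and for the mean log2 CPM of the weaned and suckling genes. Perio libraries 3 to 5 are lowest for Hnf4g (34.3 to 35.7 CPM) and for the weaned genes, and highest for the suckling genes.

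At 7 weeks the same comparison asked whether a difference between the 2 kinds of offspring was present after weaning. None of the 9 factors passed (adjusted p = 1 for each), 2 of 17464 genes (0.0115%) did, and 582 genes had an unadjusted p under 0.05, none of them a factor. DESeq2 called 25 genes and none of the 9. The log2 fold changes of Perio over Ctrl ran from -0.58 for Pdx1 to 0.048 for Cdx1, with a median of -0.21 beside 0.02 over all genes. The groups overlapped for every factor, and 0.527% of all genes did not overlap (0.246% higher, 0.281% lower).

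Pdx1 had the largest of these, followed by Prdm1 and Hnf4a. Pdx1 averaged 35.8 ± 16.7 CPM in 7w_Perio and 53.5 ± 10.5 CPM in 7w_Ctrl (SD, n = 5 each), a log2 fold change of -0.58 ± 0.29 (95% interval -1.19 to 0.03). Hnf4a averaged 575 ± 195 CPM in 7w_Perio and 744 ± 54.9 CPM in 7w_Ctrl, a change of -0.37 ± 0.21 (interval -0.80 to 0.06). For Pdx1 and Hnf4a the spread was larger in Perio, where Hnf4a libraries ran from 352 to 818 CPM. Hnf4g, which differed most at 2 weeks, was at -0.11 ± 0.29 at 7 weeks (interval -0.70 to 0.49), and Prdm1 at -0.38 ± 0.30 (interval -1.01 to 0.26). Gata4, Gata6, Onecut2, Cdx1 and Cdx2 lay between -0.24 and 0.048, with intervals within -0.81 and 0.64.

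Whether the dam difference changed between the ages was tested directly, as the difference at 7 weeks minus that at 2 weeks. None of the factors passed, 4 of 17464 genes (0.0229%) did, 1537 genes had an unadjusted p under 0.05 and DESeq2 called 65 genes, with 0 factors among them. Prdm1 had the largest value, -1.45 ± 0.43 on the log2 scale (95% interval -2.35 to -0.55, edgeR adjusted p = 0.389), followed by Hnf4g with 1.08 ± 0.40 (interval 0.24 to 1.92, adjusted p = 0.512). These 2 were the factors with an unadjusted p under 0.05. The same contrast is that of the age change in Perio minus the age change in Ctrl, so the call of Prdm1 with age in Perio and not in Ctrl was not a tested difference at 0.05. Gata6 was at 0.82 ± 0.40 (adjusted p = 0.574) and at 0.23 ± 0.16 without 2w_Ctrl library 5 (adjusted p = 0.735). The other 6 lay between -0.43 and 0.15. The age and dam comparisons share libraries, so their values are not separate evidence.

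Because the factors are made mainly by the epithelium, each was also set against the mean log2 CPM of the 9 epithelium markers in its own library. The 4 comparisons of 9 factors gave 36 exact permutation tests (two-sided), whose smallest possible p with 5 against 5 libraries is 0.00794. Those at that p had a Benjamini-Hochberg adjusted p of 0.0357. In the dam comparison at 2 weeks they were Hnf4g, lower in Perio by 1.02 on the log2 scale, Prdm1, higher by 1.37, and Cdx1, higher by 0.59. With age in Perio they were Cdx1 at -1.43, Cdx2 at -1.05, Prdm1 at -2.16 and Hnf4a at -0.67. With age in Ctrl Gata4 alone was among them, at 0.43, and at 7 weeks none was between dams (adjusted p at least 0.0952). Without 2w_Ctrl library 5 all 3 calls at 2 weeks were lost, with Cdx1 at 0.37 (exact permutation adjusted p = 0.0714), Prdm1 at 1.43 and Hnf4g at -0.75 (0.0519 each), and Onecut2 was called, at 0.64 (0.0357). With age in Ctrl, Gata4 was then at 0.27 (0.0519) and Onecut2 at 0.94, Cdx1 at -1.19 and Cdx2 at -0.51 were called (0.0357 each). The calls of Hnf4g and Prdm1 at 2 weeks were also lost without any other 2w_Ctrl library, that of Cdx1 without any 1 of the 2w_Perio libraries, and that of Gata4 without any 1 of the 7w_Ctrl libraries. With age in Perio, Hnf4a lost its call without any 1 of the 2w_Perio libraries or 7w_Perio library 4, and Prdm1 without 7w_Perio library 5 (exact permutation adjusted p at most 0.143 in all of these). With 4 against 5 libraries, even fully separated groups can have a larger exact p than with 5 against 5. A call lost in this way need not rest on the library left out, and the same holds for the paralog ratios. Relative to epithelium Cdx1, Cdx2 and Prdm1 fell with age in Perio offspring, while Gata4 there was at 0.05 (adjusted p = 0.849). With 13 brush border genes in place of the epithelium markers none of the 36 passed, the smallest adjusted p being 0.0571. Given the smallest possible p of 0.00794 over 36 tests, any can pass only where several have a small p together. That result is thus not read as a loss of the differences.

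Ratios within the 3 paralog pairs do not depend on library scaling, and were examined after the data had been seen. Hnf4a over Hnf4g, per exon length, was 3.60, 3.15, 6.34, 5.57 and 5.98 in 2w_Perio, against 2.67, 2.11, 2.49, 2.22 and 1.00 in 2w_Ctrl. Every Perio value was above every Ctrl value, a log2 difference of 1.25 (exact permutation p = 0.00794, two-sided, adjusted p = 0.0476 over 12 tests). Hnf4g alone already lay apart in these libraries and the log2 fold change of Hnf4a was -0.056, so the ratio is not separate evidence from Hnf4g. The share of other gene pairs that lie apart was not computed. Without 2w_Ctrl library 5 the log2 difference was 1.01 and the call was lost (exact permutation adjusted p = 0.0635), while it was kept in the other 19 repeats without 1 library. At 7 weeks the ratio was 1.10 to 3.29 in Perio and 1.40 to 2.82 in Ctrl (log2 difference -0.32, exact permutation adjusted p = 0.487). With age in Perio the log2 ratio was lower by 1.49 (exact permutation p = 0.0159, adjusted p = 0.0476), a call lost in 10 of the 20 repeats without 1 library, and in Ctrl it differed by 0.09 (adjusted p = 0.840).

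Cdx2 over Cdx1 was 1.37, 1.65, 1.57, 1.69 and 1.65 in 7w_Ctrl, against 1.06, 0.962, 0.961, 0.947 and 0.819 in 2w_Ctrl. Here the ages did not overlap, also without library 5 (log2 difference 0.74, exact permutation p = 0.00794, adjusted p = 0.0476, and 0.69 without it, with the call lost at an adjusted p of 0.0635). In Perio it was 1.37, 1.76, 1.25, 1.24 and 0.939 at 7 weeks, against 0.887, 0.912, 1.01, 1.00 and 1.16 at 2 weeks, with 7w_Perio library 5 among the values of 2 weeks (log2 difference 0.38, exact permutation adjusted p = 0.133). Gata4 over Gata6 was 1.68 to 2.40 in 7w_Ctrl, against 0.123 to 1.72 in 2w_Ctrl. That log2 difference of 1.14 (exact permutation p = 0.0159, adjusted p = 0.0476) became 0.42 without 2w_Ctrl library 5 and was then no longer called. In Perio the Gata4 ratio was 1.07 to 2.35 at 7 weeks and 1.06 to 1.54 at 2 weeks (log2 difference 0.33, exact permutation adjusted p = 0.259).

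**Figure D4:**
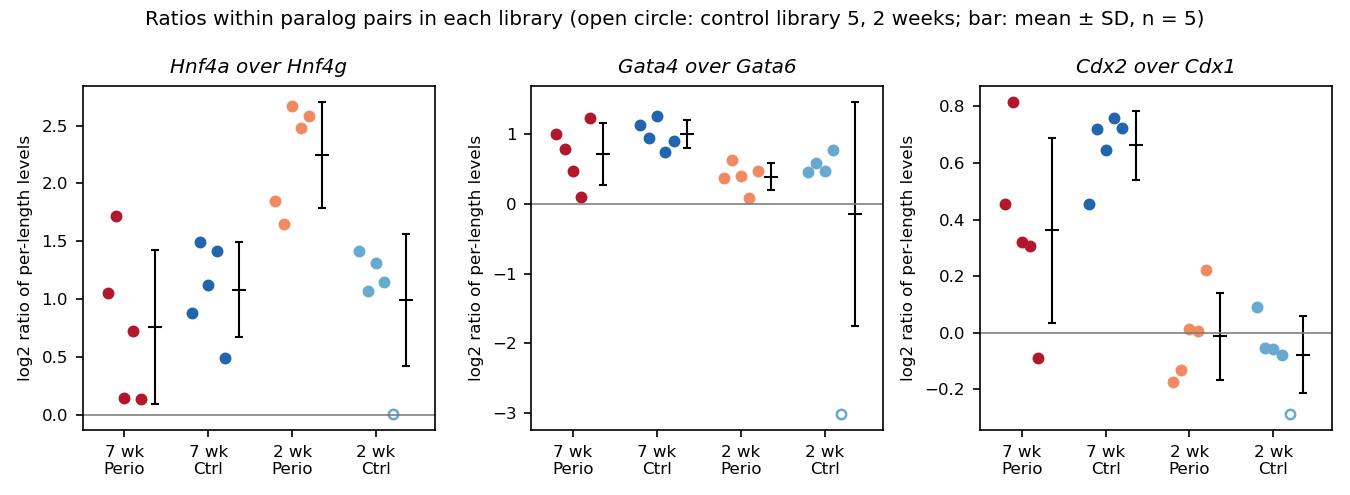
Log2 ratio of per-length levels within 3 pairs of related factors in every library, with the mean and SD of each group of 5. In 2w_Perio the ratio of Hnf4a over Hnf4g, 3.15 to 6.34 before the log2 step, lies above all 2w_Ctrl libraries. Cdx2 over Cdx1 is higher at 7 weeks in Ctrl, while 2w_Ctrl library 5 (open circle) is the lowest of its group in each panel.

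Of 30 other transcription factors and cofactors of the intestinal epithelium and wall, 29 were tested. With age 10 rose and 11 fell in Perio, and 10 rose and 14 fell in Ctrl, beside 66.1% and 61.5% of all genes called. The medians were -0.019 and -0.035, beside -0.11 and -0.13 over all genes. Isx, a homeodomain repressor of carotenoid uptake genes, rose in both, by 0.94 ± 0.11 in Perio (edgeR adjusted p = 5.36e-07) and 0.97 ± 0.11 in Ctrl (adjusted p = 6.69e-07). It had 124 to 143 CPM in 7w_Perio and 106 to 147 CPM in 7w_Ctrl, against 63.9 to 78.8 CPM in 2w_Perio and 61.0 to 69.2 CPM in 2w_Ctrl, and 2w_Ctrl library 5 did not stand apart for it. Klf4, a factor of differentiated and goblet cells, rose in both as well, by 2.27 ± 0.28 in Perio (adjusted p = 1.46e-06) and 1.65 ± 0.28 in Ctrl (adjusted p = 5.36e-05).

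Homeobox factors of the intestinal wall fell with age. Meis1 was lower by a log2 fold change of -2.55 ± 0.34 in Perio (edgeR adjusted p = 3.61e-06) and -2.22 ± 0.34 in Ctrl (adjusted p = 2.35e-05), and Nkx2-3 by -1.77 ± 0.21 in Perio (adjusted p = 9.07e-07) and -1.30 ± 0.21 in Ctrl (adjusted p = 3.54e-05). The epithelial pioneer factor Foxa1 fell as well, at -1.33 ± 0.26 in Perio (adjusted p = 0.000162) and -1.67 ± 0.26 in Ctrl (adjusted p = 2.42e-05). Of the 8 mesenchyme and muscle markers 7 fell with age in each kind of offspring, and their summed level was 525 to 1396 CPM in 7w_Perio and 585 to 1166 CPM in 7w_Ctrl, against 1702 to 4581 CPM in 2w_Perio and 2399 to 4149 CPM in 2w_Ctrl. Their part in these falls was not tested. Between dams at 2 weeks 0 of the 29 passed, the smallest p being that of Ppara (-0.86 ± 0.26, adjusted p = 0.131), and at 7 weeks 0 passed.

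For each factor, the genes whose log2 CPM deviated from the 4 group means most alike were listed from 11707 genes over the 20 libraries, and again without 2w_Ctrl library 5, as a description. Pearson's r shares the depth and makeup of each library. Gata4 went with Gpd1 (r = 0.99, and 0.94 without that library) and Arhgef18 (0.98 and 0.93), Hnf4a with Cap1 (0.96 and 0.95), Prdm1 with Pnpla7 (0.93 and 0.93), and Pdx1 with Sdha (0.91 and 0.89, where Gstt3 came first at 0.90). For Cdx1 the first gene was Ncaph2 both times (0.99 and 0.87). The first genes of Hnf4g, Gata6, Cdx2 and Onecut2 depended on the library: Slc6a4 (0.85), Ube2g1 (0.97), Hdhd3 (0.99) and Snrnp48 (0.93) with it, and Papola (0.94), Dazap2 (0.89), Rab19 (0.95) and Hmgn5 (0.91) without it. Among the factors themselves and over 19 libraries, Gata4 deviated with Hnf4a (0.81) and with Pdx1 (0.74), and Cdx2 with Prdm1 (0.73), while Pdx1 and Prdm1 went opposite ways (-0.48).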

How the data were processed

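PolyA RNA from small intestine was measured in 20 libraries, 5 in each of 4 groups of age and dam. The deposited file holds expected counts per gene, which the authors made with STAR 2.7.8a and RSEM 1.3.3 after cutadapt 4.8 and FastQC 0.11.8, per the submitters' processing notes. These name the builds GRCm38 and GRCh38. The annotation and the strand setting are not given in the sources used here. All deposited values were whole numbers, so none was changed by rounding. Of 55491 lines, 4 name no mouse gene, held 0 counts and were left out.

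Counts were tested with edgeR 4.0.16 in R 4.3.3 (TMM scaling, filterByExpr, robust quasi-likelihood fit, 1 mean per group, all 20 libraries in 1 fit with 16 residual degrees of freedom), with Benjamini-Hochberg adjustment over 17464 genes at 0.05. Standard errors are the absolute log2 fold change over the square root of F, and log2 CPM used a prior count of 2. Levels relative to epithelium and paralog ratios were tested by exact permutation of 5 against 5 libraries. Library totals of 14882204 to 42563229 counts gave every factor at least 158 counts per library. RPKM used joined exon lengths of GENCODE on GRCm38, and sequences are from RefSeq. The edgeR procedure was tested on simulated counts for the dam and age comparisons. Dam by age, the covariate fits, the permutation tests and the motif search were not. Replicate numbers were not used to pair the libraries, except in the replicate block among the alternatives.

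Alternatives were DESeq2 1.42.0, its size factors, other filters, fewer samples, a replicate block, 2 covariates and leaving out libraries. The 9 factors and the gene lists (14 lists, 133 genes) were chosen with earlier results of these data known. All 9 factors are named, and other genes are those with the smallest p of a list, up to 4 in each comparison, and those most like a factor. Some genes of these lists are not reported here.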

Additional observations from a re-analysis of the deposited data

Results flagged for a closer look

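For 5 of the 36 combinations of factor and group, 1 library was far from the other 4, and in each it was 2w_Ctrl library 5. The gap to its nearest neighbour as a share of the group's whole range, in log2 CPM, was 0.966 for Gata4, 0.823 for Gata6, 0.913 for Cdx1, 0.888 for Cdx2 and 0.77 for Hnf4a, against a critical value of 0.71. Chance flags about 1 in 20 groups. The library was low for Gata4, Cdx1, Cdx2 and Hnf4a and high for Gata6. It also had the lowest total of the series, 14882204 counts, and 29.4% of them from mitochondrial genes, and the part of either in these values was not tested.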

How the results depend on the processing

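DESeq2 called 599 genes and 2 factors between dams at 2 weeks, 25 genes at 7 weeks and 65 for dam by age. Its size factors in edgeR gave 0 genes at 2 weeks, and the compared groups alone gave 0 at 2 weeks and 0 at 7 weeks. Without a filter, log2 fold changes near 0 changed sign, to -0.0079 for Onecut2 between dams at 7 weeks, 0.013 for Gata6 with age in Ctrl and -0.026 for Cdx2 with age in Perio. In that setting Hnf4a with age in Perio was at 0.41 (edgeR adjusted p = 0.136).

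Same-numbered libraries correlated at -0.40 to 0.29 in their deviations. They were not compared with differently numbered libraries, so whether the numbers pair them was not tested. With the replicate block, 0 genes were called between dams at 2 weeks, 0 at 7 weeks and 0 for dam by age, and Gata6 with age in Ctrl was at 0.12. The block left 4 factors called with age in Ctrl and 6 in Perio.

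With the epithelium covariate, 2048 genes and 4 factors were called between dams at 2 weeks, where Gata4 was at 0.27 and Hnf4a at 0.18. At 7 weeks Gata6 was at -0.036 and Onecut2 at -0.050, and 1 gene was called for dam by age. With age 7171 genes were called in Perio and 5113 in Ctrl. In Perio Gata4 was then at -0.15, Pdx1 at -0.44, Cdx2 at -1.51 and Hnf4a at -0.45, and in Ctrl Gata6 was at 1.11, Pdx1 at -0.19 and Cdx2 at -0.66. With the proximal minus distal covariate, 428 genes and 1 factor were called between dams at 2 weeks and 5 genes at 7 weeks, where Gata6 was at -0.098 and Onecut2 at -0.063. With age 3 factors were called in Perio, with Pdx1 at -0.90 and Prdm1 at 0.095, and in Ctrl Gata6 was at 0.97 and Pdx1 at -0.79. The cause was not tested.

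Without 2w_Ctrl library 5 and 7w_Perio library 5 together, 361 genes were called between dams at 2 weeks, 32 at 7 weeks and 159 for dam by age. Onecut2 was then at 0.19, Cdx1 at -0.076 and Cdx2 at -0.070 between dams at 2 weeks. For dam by age Gata4 was at 0.12, Onecut2 at -0.11 and Cdx1 at 0.079. With age Pdx1 was at -0.063 in Perio and Gata6 at 0.56 in Ctrl. With brush border genes as the base, factors that differed relative to epithelium numbered 0 between dams at 2 weeks (3 with epithelium markers), 0 with age in Perio (4) and 0 with age in Ctrl (1). There a test could pass only where several had a small p together.

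Leaving out each library in turn, the number of genes called ran from 0 to 387 between dams at 2 weeks, 0 to 15 between dams at 7 weeks, 1 to 26 for dam by age, 10794 to 13378 with age in Perio and 10013 to 12408 with age in Ctrl. The most genes between dams at 2 weeks were called without 2w_Perio library 2. The number of factors called ran from 0 to 2 between dams at 2 weeks, 0 to 0 between dams at 7 weeks, 0 to 0 for dam by age, 5 to 7 with age in Perio and 3 to 6 with age in Ctrl. The number of factors that differed relative to epithelium ran from 1 to 3 between dams at 2 weeks, 0 to 1 between dams at 7 weeks, 3 to 4 with age in Perio and 0 to 3 with age in Ctrl. Values that changed sign between dams at 2 weeks ran, for Gata4 over Gata6 from -0.18 to 0.77, Gata6 relative to epithelium from -0.53 to 0.26, Cdx1 from -0.074 to 0.25, Cdx2 from -0.069 to 0.29, Hnf4a from -0.19 to 0.020 and Onecut2 from -0.27 to 0.20. Values that changed sign between dams at 7 weeks ran, for Hnf4g relative to epithelium from -0.20 to 0.15, Gata6 from -0.018 to 0.12, Hnf4g from -0.22 to 0.11, Onecut2 from -0.19 to 0.14 and Onecut2 relative to epithelium from -0.10 to 0.26. Values that changed sign for dam by age ran, for Cdx1 from -0.21 to 0.12, Gata4 from -0.17 to 0.14, Onecut2 from -0.19 to 0.29 and Pdx1 from -0.47 to 0.013. Values that changed sign with age in Perio ran, for Gata4 relative to epithelium from -0.063 to 0.16, Cdx2 from -0.031 to 0.092 and Pdx1 from -0.063 to 0.44. Values that changed sign with age in Ctrl ran, for Hnf4a over Hnf4g from -0.16 to 0.24, Hnf4g relative to epithelium from -0.35 to 0.085 and Gata6 from -0.15 to 0.59. The fewest counts of any factor in a library were 158, and whether depth limits these values was not tested.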
